A study of Mus musculus with 3 samples.

Results

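H3K27me3 domains of 5000 bp or more and under 20000 bp that no Suz12 peak overlapped were examined in chromatin of mouse small intestinal crypts. H3K27me3 peaks of the 19 autosomes were joined wherever the gap between neighbours was at most 5000 bp, a domain ran from the start of its first peak to the end of its last, and 1 shared bp with a Suz12 peak was enough to exclude it. This left 1197 of the 1457 mid-length domains, which held 7315 of the 25955 H3K27me3 peaks in the deposited list (28.2%). Joining across at most 1000 bp instead left 423 domains without Suz12 (55.6% of the mid-length ones), and using only the H3K27me3 peaks in the upper 50% of values left 599 (69.3%). The other 260 mid-length domains held at least 1 Suz12 peak and 2254 H3K27me3 peaks, and they serve as the comparison. Members were thus chosen by the positions of the H3K27me3 peaks (spacing and total span) and by the absence of a listed Suz12 peak, so the number of domains without Suz12 is a description and not a test.

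The data came from chromatin immunoprecipitation followed by sequencing (ChIP-seq), in which an antibody recovers the DNA that lies with a chosen protein or histone mark. All libraries were from crypts of C57BL/6 mice with the Lgr5Gfp-CreERT2 genotype, an allele in which the stem cell gene Lgr5 drives a fluorescent reporter and a Cre recombinase that tamoxifen can switch on. Series text calls the cells wild type, and neither a sort nor an inducing agent is named in the labels, so nothing in them restricts a list to the Lgr5-positive cells. The number of mice, their age and any pooling are not given in the sources used here. There were 3 libraries, namely 1 precipitated for H3K27me3, 1 precipitated for Suz12 and 1 input without antibody, and no input peaks were used here. With 1 library per antibody no value has a replicate error, and since domains are not replicates they were compared without p-values. Crypt identity was not checked against marker genes, since no mm9 annotation was used here.

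Suz12, together with Eed and a catalytic subunit (Ezh1 or Ezh2), forms the core of Polycomb repressive complex 2 (PRC2), which places methyl groups on lysine 27 of histone H3. Eed also binds the finished mark, and that binding stimulates the enzyme, so the mark can extend beyond the sites where the complex is most concentrated. In the gut epithelium, as in other tissues, H3K27me3 is known for covering silent developmental regulators, often around CpG-rich promoters.

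The deposited peak value, a score that the lists leave undefined, is used only to describe and rank peaks inside the H3K27me3 list. No deposited peak had a value under 8, and read depth is unknown, so weaker sites are outside every count. Of all 7624 autosomal domains of any length, 6.03% held Suz12. Among mid-length domains the share without Suz12 was 82.2% (exact 95% binomial interval 80.1 to 84.1, which covers counting error only and treats domains as independent). The 1197 domains spanned 10.8 Mb and contained 3.93 Mb of peak sequence, or 26.9% of all autosomal sequence in H3K27me3 peaks. The 260 with Suz12 contained 11.6%.

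Peaks filled less of the span in domains without Suz12. They covered a median of 35.4% of the span (quartiles 22.9 and 49.0%, range 6.80 to 92.7%), against 57.4% (quartiles 47.4 and 68.3%, range 14.0 to 100%) with Suz12. The 95% order-statistic intervals of these medians, 33.8 to 36.9% and 55.7 to 59.5%, did not overlap, and they too cover counting error only. Coverage reached 50% in 281 of 1197 domains without Suz12 (23.5%, interval 21.1 to 26.0) and in 182 of 260 with it (interval 64.0 to 75.5%). At the other end, coverage was under 20% in 239 domains without Suz12 and in 2 of the 260 Suz12-holding domains. The size of the difference depends on the joining gap. At 1000 bp the medians were 69.8 and 76.9%, and the difference was -7.13 percentage points instead of -21.9.

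Their strongest peak was also lower. The median highest value was 16.9 without Suz12 (quartiles 13.7 and 21.3, range 8.52 to 42.8) and 25.7 with it (quartiles 21.5 and 29.0, range 11.7 to 40.5). A strongest peak of 28 or more occurred in 64 of 1197 domains without Suz12 (5.35%, interval 4.14 to 6.78) and in 80 of 260 with it (30.8%, interval 25.2 to 36.8). The ranges overlapped almost completely, and the highest value of any mid-length domain, 42.8, belonged to one without Suz12. The typical peak differed far less than the strongest. The median of each domain's median peak value was 11.2 without Suz12 and 12.2 with it.

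**Figure D1:**
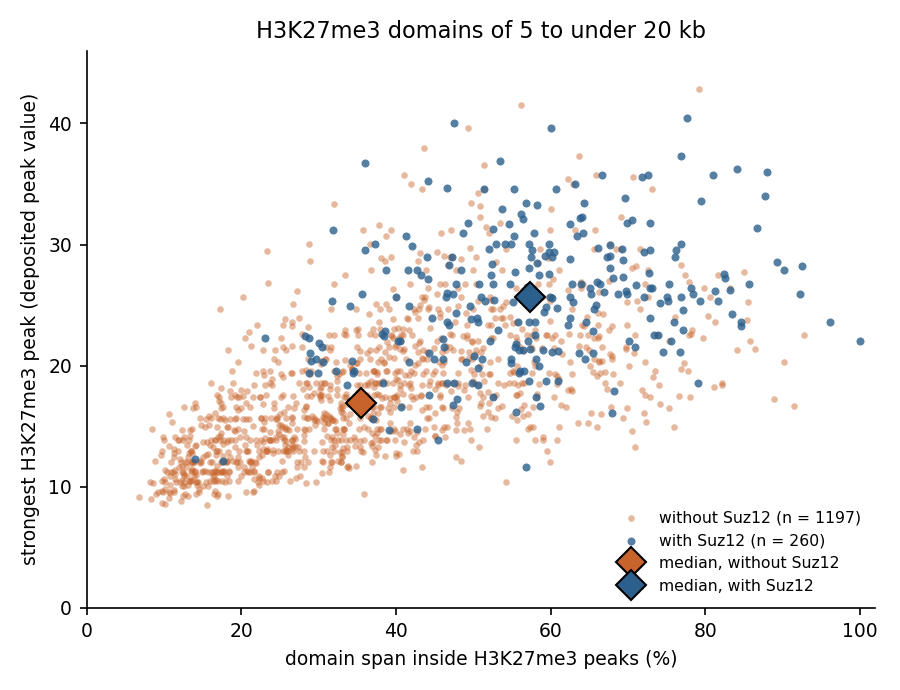
Each point is 1 mid-length H3K27me3 domain, placed by the percentage of its span inside H3K27me3 peaks (x axis) and the deposited value of its strongest peak (y axis), and diamonds are group medians. Domains without Suz12 (orange, n = 1197) gather at the lower left around 35.4% and 16.9, and those with Suz12 (blue, n = 260) around 57.4% and 25.7, with broad overlap.

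Peak number separated the groups least. The median was 6 H3K27me3 peaks per domain without Suz12 (quartiles 4 and 7, range 2 to 17) and 8 with it (quartiles 6 and 11, range 1 to 23). Domains without Suz12 were the shorter ones, with a median length of 7730 bp against 11288 bp, and longer domains hold more peaks. Averaged over length bins of 1000 bp, the difference in median peak number was -1.03, or 1 peak fewer without Suz12. Per 10 kb of span the medians were 6.82 and 7.63 peaks.

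Coverage and strongest value differed in every length bin of 2500 bp. From 5000 to 7500 bp, the 561 domains without Suz12 had a median coverage of 37.5% and a median strongest value of 15.9, and the 60 with Suz12 had 65.7% and 24.9. From 17500 to 20000 bp, the 54 without had 33.7% and 19.5 and the 30 with had 59.1% and 26.6. Median peak number was equal, at 11, from 15000 to 17500 bp and lower without Suz12 in the other 5 bins. The share without Suz12 fell with length, from 90.3% (interval 87.7 to 92.6) in the shortest bin to 64.3% (53.1 to 74.5) in the longest.

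**Figure D2:**
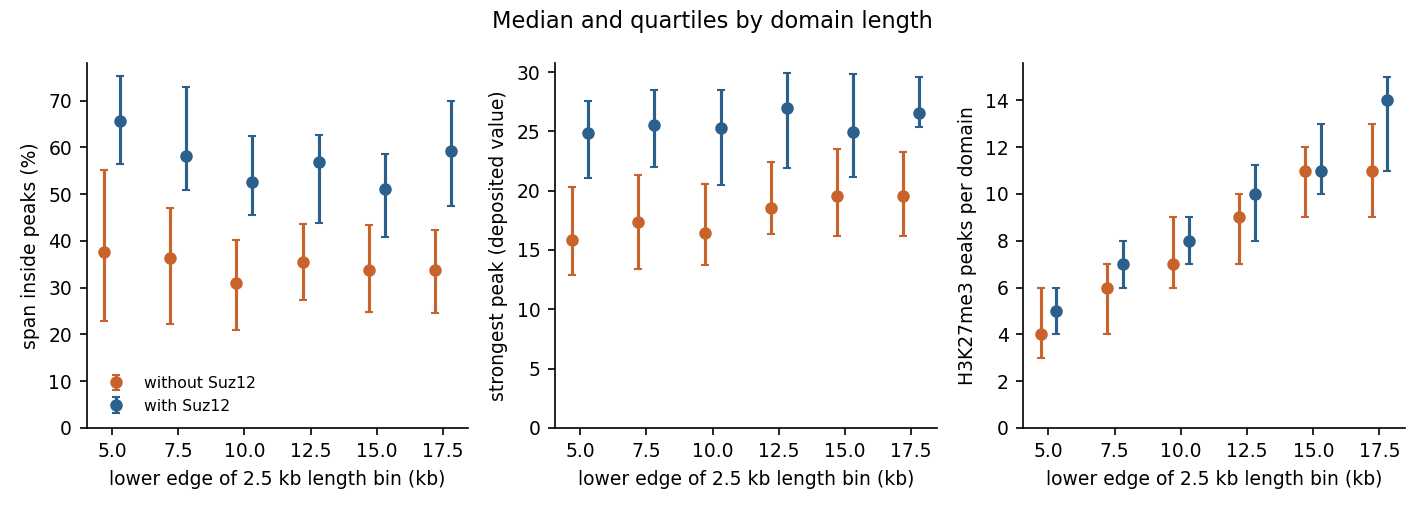
Medians (points) and quartiles (bars) of coverage in percent, strongest deposited peak value and number of H3K27me3 peaks per domain (y axes) in 6 length bins of 2500 bp (x axes, lower bin edge in kb), without Suz12 (orange) and with Suz12 (blue). Coverage and strongest value are lower without Suz12 in each bin, while median peak numbers differ by 0 to 3.

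At equal peak number the difference in strongest value averaged -8.73 on the deposited scale, against -8.78 over all domains (without minus with Suz12). The average weights each peak number by its domains without Suz12, so small peak numbers count most. The difference was -10.53 at 4 or 5 peaks, -6.84 at 6 or 7 and -5.075 at 12 or more, so it was smaller where peaks were many. Domains with 4 or 5 peaks had a median strongest value of 15.7 without Suz12 (420 domains) and 26.2 with it (43 domains). With 12 or more peaks the values were 20.8 (60 domains) and 25.9 (47 domains). Median coverage at 4 or 5 peaks was 31.6 and 66.9%, so the same number of peaks filled more of the span where Suz12 was present. The widest peak of a domain had a median width of 974 bp without Suz12 and 1908 bp with it.

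Read the other way, the share of mid-length domains without Suz12 fell as the H3K27me3 signal rose. Of 156 domains whose strongest peak was under 12, all but 1 lacked Suz12 (99.4%, interval 96.5 to 99.98). The share was 90.7% (87.1 to 93.6) from 16 to 20, 55.8% (47.8 to 63.5) from 24 to 28 and 42.3% (28.7 to 56.8) from 32 upward, where 22 of 52 had none. By coverage it went from 99.2% (97.0 to 99.9) below 20% to 52.1% (42.8 to 61.3) at 70% or more. At a strongest value from 8 to 16 the share was much the same under 10000 bp, at 98.8% (97.1 to 99.6), and from 10000 bp upward, at 98.4% (94.5 to 99.8). From 16 to 24 it was 88.3% (84.5 to 91.4) and 76.9% (71.2 to 82.0). With a strongest value of 24 or more, 61.8% (53.6 to 69.6) of the domains under 10000 bp lacked Suz12, and 39.5% (31.8 to 47.6) of those from 10000 bp upward did.

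**Figure D3:**
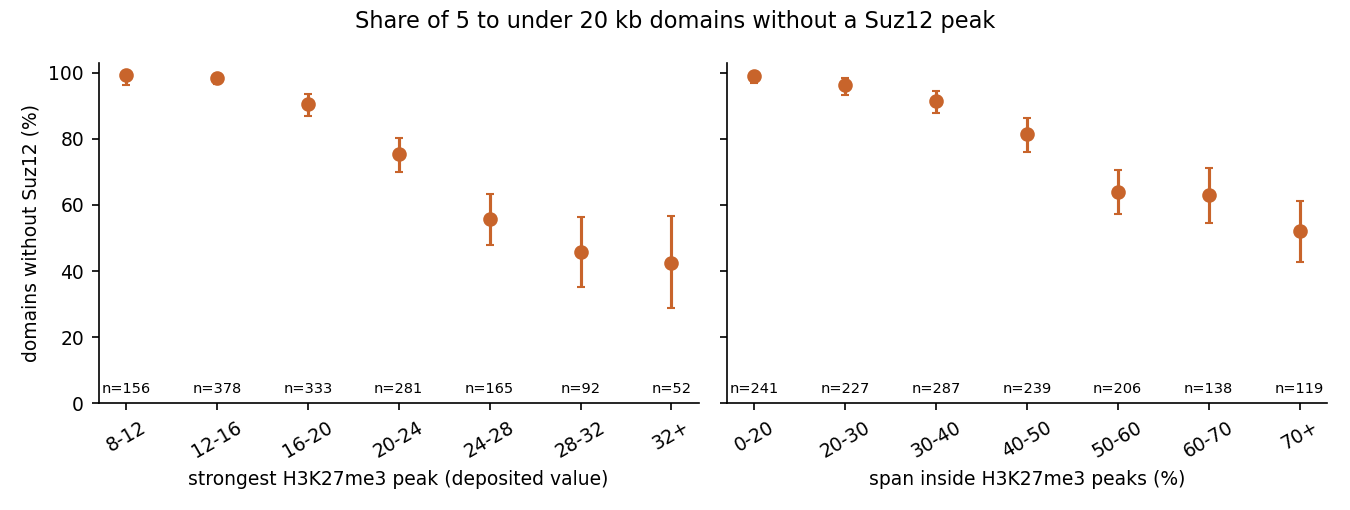
Percentage of mid-length H3K27me3 domains without a Suz12 peak (y axis) by the deposited value of the strongest peak and by coverage in percent (x axes), with exact 95% binomial intervals as bars and the number of domains in each bin above the axis. Nearly all weakly marked domains lack Suz12, and 42.3% of the domains with the strongest peaks do.

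H3K27me3 peaks on and off Suz12 were set apart within the Suz12-holding domains. Within the 260 Suz12-holding domains, 464 of 2254 H3K27me3 peaks (20.6%) overlapped a Suz12 peak, and these had a median value of 20.5 and a median width of 1348 bp. The 1790 peaks off Suz12 in the same domains had a median value of 11.7 (quartiles 9.74 and 14.7) and a median width of 422 bp. The 7315 peaks of the domains without Suz12 were close to the latter, at 11.2 (quartiles 9.55 and 13.8) and 380 bp. They were closer still to all 25897 autosomal H3K27me3 peaks, which include them, at 11.2 (quartiles 9.55 and 14.1) and 379 bp. The likeness is thus not particular to peaks off Suz12. Suz12 overlapped the strongest H3K27me3 peak in 189 of the 260 domains (72.7%, interval 66.8 to 78.0). When only peaks off Suz12 were considered, the strongest had a median value of 18.4 in Suz12-holding domains, against 16.9 in domains without Suz12. A wide peak has more chance to overlap Suz12, and leaving out overlapped peaks had to lower the maximum in 1 group only, so these values do not show where the difference between the groups lies.

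The internal layout differed as well. The strongest peak had its centre in the middle 50% of the span in 48.2% of domains without Suz12 (interval 45.3 to 51.1) and in 67.7% of those with it (61.6 to 73.3). It was the first or last peak in 358 domains without Suz12 (29.9%) and 32 with it (12.3%), though domains with fewer peaks have a larger part of them at the ends. Peak number was not held equal in either of these comparisons of position. The largest internal gap had a median of 2809 bp without Suz12 and 1798 bp with it, and it was over 3000 bp in 44.5% (41.7 to 47.4) and 20.4% (15.7 to 25.8). With a joining gap of 1000 bp, 95 of the 1197 domains without Suz12 (7.94%, interval 6.47 to 9.62) would have stayed whole, against 61 of 260 (23.5%, 18.4 to 29.1). The median domain without Suz12 fell into 3 pieces.

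Single domains show the range, and all coordinates that follow are mm9, counted from 1. The strongest peak of any domain without Suz12 lay on chromosome 9 in the domain at 20836344-20843469, which has 4 peaks over 79.1% of 7126 bp. In genome order its peaks had values of 18.6, 13.1, 15.2 and 42.8, and the last of them was 4415 bp wide, the third widest of all member peaks. The widest and strongest peak thus lay at one end of the domain, and the weakest lay inside it. The nearest listed Suz12 peak was 205 kb away.

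Chromosome 11 held the next strongest, at 116509870-116516565, where 5 peaks had values of 8.50, 9.65, 10.6, 17.5 and 41.5 and widths that grew from 302 to 1861 bp towards the same end. On chromosome 15, the domain at 98883503-98896976 had 8 peaks, of which 1 reached 39.6 over 2965 bp and the others 8.75 to 15.7. A Suz12 peak lay 28.2 kb from it. The next in order were on chromosome 4 at 136832504-136843396 (strongest value 38.0, 10 peaks) and chromosome 2 at 164224522-164230772 (37.3, 5 peaks). In each of these 5 domains the strongest peak was far above the domain's median peak value, which was 10.6 to 16.9. Since the 5 were picked for their strongest peak, such a distance was largely given.

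The 5 most densely covered domains had lower strongest peaks than the 5 above, which were picked for that value. Over all domains without Suz12 the 2 measures rose together. The median strongest value was 12.1 at a coverage under 20% and 22.2 at 70% or more. The highest coverage, 92.7%, was on chromosome 9 at 34292830-34298179, where 4 peaks of 15.7, 15.7, 16.6 and 22.6 were separated by at most 193 bp. The next, on chromosome 2 at 127306149-127311911, had 91.5% coverage with 5 peaks of 9.25 to 16.6. Coverage was 90.1% on chromosome 5 at 37631596-37638030, 88.9% on chromosome 13 at 43710310-43715511 and 86.4% on chromosome 3 at 103376585-103381633. All 5 were short, at 5049 to 6435 bp, and none had a peak above 22.6, so the highest coverage and the highest peak picked different domains.

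The domains with the most peaks were long. The 17 peaks at 45366981-45386456 on chromosome 19 covered 40.5% of 19476 bp, with a strongest value of 18.1. On chromosome 3, the 16 peaks at 89022237-89041818 covered 33.5%, with a strongest value of 17.6. There were 7 domains with 15 peaks, and the first 3 in chromosome order were on chromosome 1 at 78129837-78147332 (39.6% coverage), chromosome 5 at 144036056-144055862 (52.0%) and chromosome 6 at 29117743-29135587 (37.7%). Their strongest values were 18.5, 31.0 and 20.3. Over all 9 domains with 15 or more peaks, lengths ran from 17405 to 19807 bp and coverage from 33.0 to 66.2%. The highest coverage was on chromosome 11 at 97423373-97440777, which was also the nearest of the 9 to a Suz12 peak, at 15.1 kb. This domain was singled out after its values were seen.

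**Figure D4:**
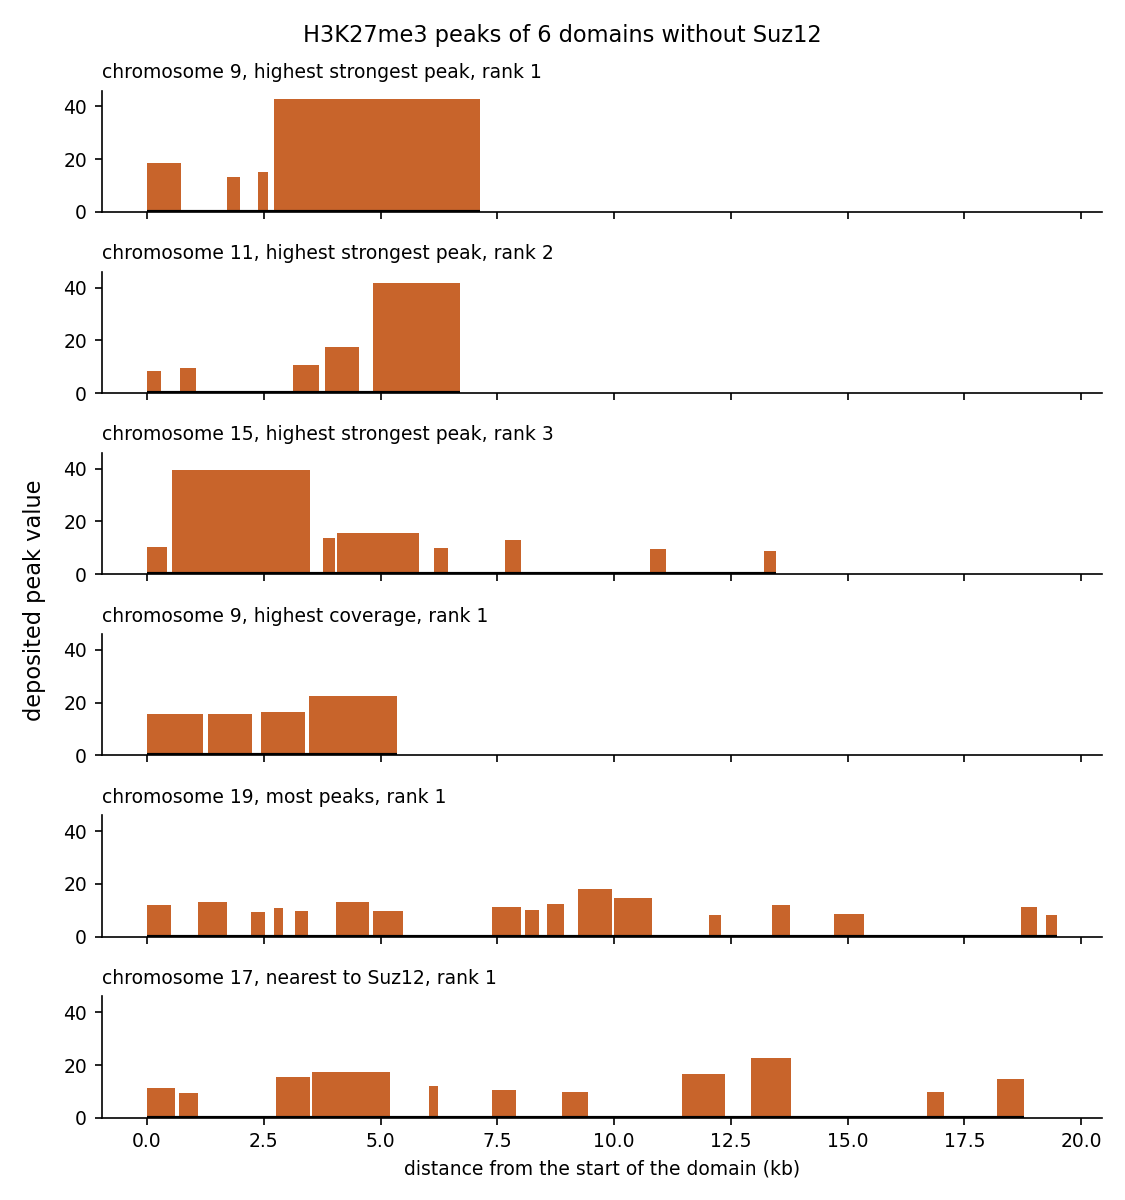
H3K27me3 peaks (orange bars, width to scale) of 6 domains without Suz12, with distance from the domain start in kb on the x axis and the deposited peak value on the y axis. The first 3 have 1 peak of 39.6 to 42.8 that stands above the rest, the fourth is almost filled by 4 moderate peaks, and the last 2 are strings of 17 and 11 separate peaks.

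The widest member peak measured 5160 bp, with a value of 26.4, and lay on chromosome 10 in the domain at 79759532-79779250. That domain had 2 further peaks over 3000 bp and 79.8% coverage, and at 15732 bp it held the most peak sequence of all domains without Suz12. The peak of 5057 bp on chromosome 15, in the domain at 31294590-31302131, had a value of 21.0 and only a 278 bp peak of 8.63 beside it. These blocks of several kilobases were exceptions, since the median member peak was 380 bp wide.

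Values just inside and just outside the length limits were as follows. The 3 shortest, of 5005, 5007 and 5008 bp, had strongest values of 13.8, 14.7 and 14.7 and were on chromosome 13 at 28975715-28980719, chromosome 1 at 137024150-137029156 and chromosome 17 at 79750513-79755520. Both domains of 4994 bp just under the limit were on chromosome 17, with values of 12.6 and 12.5. The 3 longest, of 19807 to 19908 bp, had strongest values of 29.7, 16.1 and 31.0, and the first lay on chromosome 11 at 114638458-114658365. The other two were both on chromosome 5, at 143969662-143989470 and 144036056-144055862. Just past the upper limit, domains of 20005 and 20196 bp had 22.6 and 22.1. The 118 domains of at least 20000 bp without Suz12 had a median coverage of 36.3%, near the 35.4% of the mid-length ones, and a higher median strongest value of 22.1 with a median of 16 peaks.

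For domains without Suz12 the nearest Suz12 peak was at a median distance of 609193 bp, 130 domains (10.9%, interval 9.15 to 12.8) had one within 50000 bp, and only 1 had one within 5000 bp. The gap rule shapes the last number, because 97.1% of autosomal Suz12 peaks overlapped an H3K27me3 peak and any such H3K27me3 peak within 5000 bp would have been joined. That 1 domain, on chromosome 17 at 36348820-36367600, had 11 peaks of 9.55 to 22.6 and stood 615 bp from a 219 bp Suz12 peak with a value of 19.9 that no H3K27me3 peak overlapped. Next were a domain on chromosome 2 at 18587169-18593028, 6275 bp from a Suz12 peak of 65.1, and one on chromosome 10 at 42319932-42338699, 7542 bp from a Suz12 peak of 9.74. The farthest were at 7077411-7084367 and 7759088-7766256 on chromosome 15, with 28.1 and 27.5 Mb to the nearest listed Suz12 peak, and at 63856849-63864726 on chromosome 16, with 27.4 Mb. Their strongest values, 20.5, 20.2 and 17.6, were all above the median of 16.9 for domains without Suz12.

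Closeness to Suz12 did not go with a stronger mark. The 130 domains within 50000 bp had a median strongest value of 15.6 and a median coverage of 31.4%. The 433 domains more than 1000000 bp away had 17.6 and 38.0%. These medians are a description across sites that share 1 library, with no test.

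The surroundings held more H3K27me3 around domains without Suz12. The nearest other domain of any length was at a median of 12370 bp, against 19116 bp for domains with Suz12, and one lay within 50000 bp for 78.4% (75.9 to 80.7) and 66.2% (60.1 to 71.9). In the 50000 bp on either side, peaks covered a median of 1.74 and 0.568% of the sequence. The nearest other domain with Suz12 was at a median of 609692 bp from domains without Suz12 and 765319 bp from those with it. A Suz12-holding domain within 50000 bp was about as frequent in both groups, at 12.4% (10.6 to 14.4) and 10.4% (6.96 to 14.7), and these intervals overlap. The nearest other domain held Suz12 for 6.43% of domains without it, close to the 6.03% of all autosomal domains that hold it.

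Every autosome had such domains, from 18 on chromosome 16 to 122 on chromosome 11. Density was 0.484 per Mb over the autosomes, highest on chromosome 11 at 1.00 per Mb, chromosome 19 at 0.734 and chromosome 4 at 0.720, and lowest on chromosome 16 at 0.183. The high density on chromosomes 11 and 19 was not particular to domains without Suz12. Those with Suz12 stood at 0.105 per Mb over the autosomes, 0.205 on chromosome 11, 0.228 on chromosome 19 and 0.0964 on chromosome 4. Chromosomes 2, 4 and 11 together held 350 of the 1197 (29.2%). Relative to all domains of a chromosome, mid-length ones without Suz12 made up 20.4% on chromosome 4 and 18.3% on chromosome 11, against 10.7% on chromosome 14. Over all autosomes they were 1197 of 7624 domains. The share without Suz12 among mid-length domains ranged from 69.2% on chromosome 14 (27 of 39, interval 52.4 to 83.0) to 88.2% on chromosome 18 (30 of 34, interval 72.5 to 96.7), with overlapping intervals. Median coverage per chromosome ran from 26.4% on chromosome 16 to 40.4% on chromosome 12. Genes, exons and promoters at these sites were not assigned, because the gene table used here is in GRCm38 coordinates and the lists are in mm9.

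**Figure D5:**
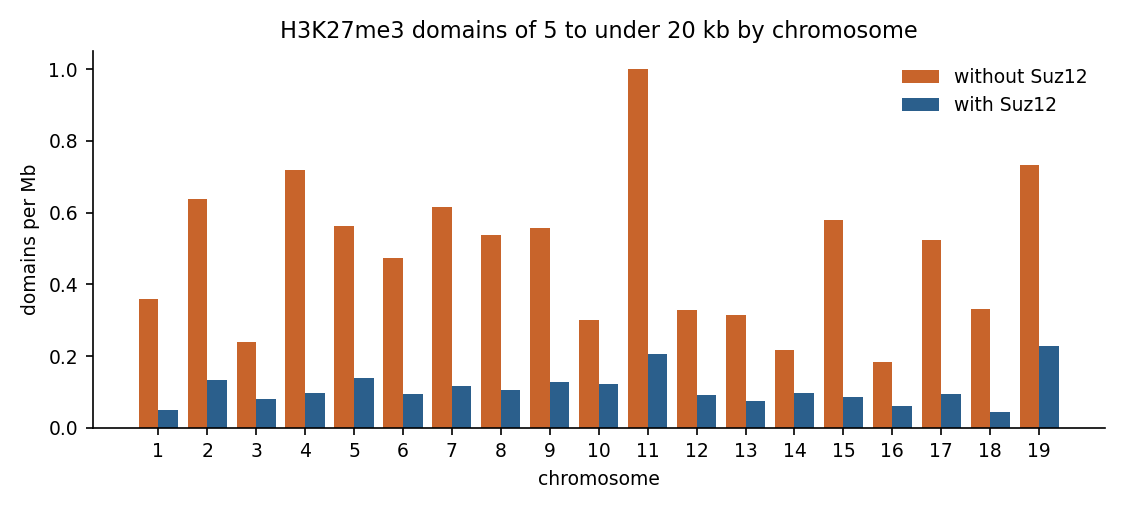
Mid-length H3K27me3 domains per Mb (y axis) on each autosome (x axis), without Suz12 (orange bars) and with Suz12 (blue bars), 1 library per antibody. Chromosome 11 has the most domains without Suz12, at 1.00 per Mb, and chromosome 16 the fewest, at 0.183.

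Peak numbers limit how many of these domains could hold a Suz12 peak that was numbered but is absent from the list. Names in each list carry running numbers in genome order, and 1477 of 1735 Suz12 numbers were present. For 796 of the 1197 domains (66.5%, interval 63.7 to 69.2) the Suz12 peaks on either side had consecutive numbers, so no numbered Suz12 peak was missing between them. The same held for 66.7% of all autosomal domains without Suz12, a share close to that of the mid-length ones. For 311 domains 1 number was missing between the flanking peaks, for 48 there were 2 and for 42 more than 2. If each missing peak lay in at most 1 domain, no more than 116 of the 1197 (9.69%) could hold one. Sites that the caller never numbered are not covered by this count. Some named domains also had numbers missing between their flanks, namely the 3 farthest from Suz12 (2, 2 and 1). The same held for the 2 with the strongest peaks, on chromosomes 9 (1) and 11 (2), and for the one with the widest peak (4). The domains ranked 3 to 5 by strongest peak had 0 missing. Where numbers are missing, an unlisted Suz12 peak could lie nearer or inside. The 796 domains had a median coverage of 34.8% and a median strongest value of 16.6, close to the values of all 1197. Since the 796 make up 66.5% of the 1197, such closeness was largely given.

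H3K27me3 numbers were missing too. Inside domains without Suz12, 87.3% of the numbers were present (7315 of 8378), against 91.9% inside Suz12-holding ones and 76.5% over the autosomes. Domain ends are present by definition, which raises the share inside domains. The missing peaks are not in the coverage or peak numbers given here.

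A small set combined high coverage with a high strongest value. Coverage and strongest value were both at or above the medians of the Suz12-holding group in 46 of 1197 domains without Suz12 (3.84%, interval 2.83 to 5.09) and in 82 of 260 with it (31.5%, interval 25.9 to 37.6). Over all mid-length domains the share was 8.79%. These 46 had a median length of 7307 bp, against 7730 bp for all domains without Suz12 and 11288 bp for those with it. Their median largest internal gap was 1179 bp, against 2809 bp for all domains without Suz12 and 1798 bp for those with it. Choosing a coverage of at least 57.4% leaves little room for gaps, so the smaller gap follows in part from the choice. For 32 of the 46 the flanking Suz12 numbers were consecutive, and the Suz12 peak nearest to any of the 46 was 22347 bp away. Conversely, 750 domains without Suz12 (62.7%, interval 59.8 to 65.4) and 27 with it (10.4%) were below the lower quartile of the Suz12-holding group in both measures. Both sets of cut-offs come from the Suz12-holding group itself, so its own shares were bounded beforehand.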

How the data were processed

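Crypt chromatin was profiled in 1 H3K27me3, 1 Suz12 and 1 input library. Per the submitters' processing notes, Bowtie and MACS2 were used with the mm9 build, with no role or version given. The authors deposited 1 peak list per antibody with a score for each peak, at least 8 in both lists. What the score measures and whether the input was used in calling are not given in the sources used here. Read counts, and so depth, are unknown.

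Peaks were joined, overlapped (at least 1 bp) and summarised with pandas 2.3.3, numpy 2.4.6 and scipy 1.17.1 under Python 3.11.15, and plotted with matplotlib 3.10.9. Lengths of mm9 chromosomes came from GenomeInfoDb 1.38.1. Joining, overlap and the count of missing numbers were tested on simulated data. Shares carry exact (Clopper-Pearson) 95% intervals and medians order-statistic 95% intervals, both for counting error only.

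Named domains are the 5 with the highest strongest peak, highest coverage and most peaks, the 3 longest, shortest, nearest to and farthest from Suz12, those of the 3 widest peaks, and 2 beyond each length limit. Members, comparisons and alternatives were chosen with earlier results of these data known. The planned gene and promoter comparisons were not run, and no sequence is shown, because no mm9 genome or annotation was used here.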

Additional observations from a re-analysis of the deposited data

How the results depend on the processing

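No paired analysis was possible because each antibody has a single library, and for the same reason no replicate could be left out. Of 52 alternatives, 28 left a value within its counting interval (counts within 1.5 times) and 24 moved it. None reversed a difference. Counting Suz12 peaks within 1000 or 5000 bp left 1196 domains instead of 1197, which the joining gap nearly fixed beforehand. Domains with consecutive Suz12 numbers are part of the 1197, so little change could appear there. Both kinds of setting are among the 28. Summed peak length was labelled moved without an interval, as its unit differs. Peaks per 10 kb were set against the interval for peaks per domain. Differences are without minus with Suz12. With a joining gap of 1000 bp there were 423 domains without Suz12 (55.6%), and the differences were -7.13 percentage points in coverage, -5.29 in strongest value and 0 in peak number. A gap of 10000 bp gave a share of 86.5% and differences of -33.3 and -9.66. The upper 50% of Suz12 peaks by value gave 89.8%. With the upper 50% of H3K27me3 peaks there were 599 domains (69.3%) and differences of -6.78 in strongest value and -1 in peak number. Under 10000 bp the share was 88.5% and the differences -26.8 in coverage and -1 in peak number, and from 10000 bp there were 379 domains (71.1%). Length bins of 1000 bp gave -1.03 peaks. In other units, the differences were -0.95 for the median peak value, -5.02 for the width-weighted mean, -2982.5 bp of peak sequence and -0.808 peaks per 10 kb. Against the strongest peak off Suz12 the difference was -1.50. That setting, equal peak number and consecutive Suz12 numbers were added after seeing the data. Apart from the settings that compare fewer sites by construction, the cause of these shifts was not tested. The minimum of 8 and the unknown read depth limit what any count shows about weaker sites.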

Other observations

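Domains without Suz12 were also counted in windows of 1 Mb, which were chosen after the values were seen and carry no test. Of 2482 autosomal windows, 595 held the start of at least 1 such domain. The 55 windows with 5 or more held 334 domains, or 27.9%. The highest count was 11, on chromosome 11 from 96000001 to 97000000, in a window that also held 43 Suz12 peaks and 4 longer or shorter domains with Suz12. Counts of 9 came from chromosome 15 (101000001 to 102000000) and chromosome 7 (25000001 to 26000000), and neither of those windows held a Suz12 peak. The window on chromosome 15 held 33 H3K27me3 domains of any length and that on chromosome 7 held 19. Crowded windows thus occurred both beside many Suz12 peaks and where the list has none.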
